A study of Mus musculus with 8 samples.

Results

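The core spliceosome genes described here are 53 protein-coding genes, taken by symbol from the 26146 genes of the count table and grouped by the particle their protein belongs to. They comprise 7 genes of the Sm ring, 7 of the LSm ring, 3 of the U1 particle, 11 of the U2 particle and 3 whose products recognise the branch point or the 3′ splice site. A further 13 belong to the U4/U6.U5 tri-snRNP or join with it in the B complex, 5 to the Prp19 complex (NTC) and 4 are RNA helicases. All 53 symbols were present in the table and all 53 passed the filter on low counts.

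The spliceosome removes introns from pre-mRNA. U1 and U2, which are small nuclear RNAs bound by proteins, mark the 5′ splice site and the branch point, the U4/U6.U5 tri-snRNP then joins, and the NTC and a series of DEAH-box helicases activate, remodel and finally take apart the complex. Sm proteins form a ring on the U1, U2, U4 and U5 RNAs, and LSm proteins form the matching ring on U6. Jmjd6, a JmjC-domain oxygenase, is known to hydroxylate lysines of the splicing factor U2af2, and the series was set up to follow gene expression and splicing after its loss. In haematopoietic stem cells the spliceosome is best known through the recurrent mutations of splicing factor genes such as SF3B1 in myeloid neoplasms.

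RNA was sequenced in bulk from sorted Lin-Sca1+Kit+ (LSK) cells, the bone marrow fraction that holds haematopoietic stem cells and early multipotent progenitors, of 8 mice. The Jmjd6 KO group held 4 mice in which a floxed Jmjd6 had been deleted in the haematopoietic lineages by a Cre driven in those cells, and the wild type group held 4 mice. The deletion protocol is worded alike for every sample. The labels give neither the Cre line, the strain, the age, nor whether the wild type mice carried the floxed allele or the Cre. Each library is 1 mouse, and in such bulk libraries fewer cells of a type and less RNA per cell cannot be told apart. The counts are gene totals and hold no information on exon use, so intron removal itself was not measured here.

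Library totals ran from 9344779 to 15079960 counts. Jmjd6 was at 52.5, 63.7, 54.6 and 63.7 CPM (counts scaled to the same library total, with TMM factors) in wild type replicates 1 to 4 and at 28.7, 28.1, 30.7 and 27.5 CPM in KO replicates 1 to 4, a log2 fold change of -1.03 (SE 0.15, edgeR adjusted p = 0.0381). All KO libraries lay below all wild type libraries, and the fold change stayed between -1.06 and -0.99 with single libraries left out. The adjusted p then ran from 0.0401 to 0.254 by edgeR and passed 0.05 only without KO replicate 3. The LSK markers, 10 genes such as Kit, Ly6a and Cd34, summed to between 3065 and 3848 CPM in wild type and 2970 and 3300 CPM in KO. Some libraries stood apart. Erythroid markers (8 of 9 listed genes in the table) summed to 423 CPM in wild type replicate 1, and elsewhere to no more than 66.9 CPM among wild type and 44.6 CPM among KO libraries, and 9 granulocyte and monocyte markers to 5226 CPM there against at most 1253 and 2379 CPM. KO replicate 3 scored 83.9 on the first principal component of all tested genes, against -28 to 9.4 elsewhere, and 2 libraries, wild type replicate 4 and KO replicate 3, had no Y-linked counts. The 5 T and NK markers summed to between 126 and 234 CPM in wild type and, without overlap, between 261 and 379 CPM in KO, highest in KO replicate 3. The 5 B lineage markers summed to between 60.1 and 84.7 CPM in wild type and, with overlap, between 79.6 and 119 CPM in KO. Megakaryocyte and macrophage markers (5 genes each) lay between 92.8 and 209 and between 74.4 and 137 CPM. The 4 stromal and endothelial markers lay at no more than 2.66 CPM. The part of these differences in the results below was not tested beyond leaving the libraries out.

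The spliceosome genes were well expressed in LSK cells. Scaled to transcript length, their median was 59.6 CPM per kilobase, against 11.8 over all tested genes. Among Sm genes Snrpe and Snrpb, which encode the SmE and SmB proteins, had the highest levels per length, 506 and 447 CPM per kilobase. Snrpd1 was at 206, Snrpf at 128 and Snrpg at 126, while Snrpd2 at 69.2 and Snrpd3 at 45.8 CPM per kilobase were the lowest of the ring. Most LSm genes lay close together, from 100 (Lsm8) to 188 (Lsm3) CPM per kilobase, with Lsm6 at 35.4 below them. These levels depend on the reference transcript, which has 3792 bases for Lsm6 and 743 for Lsm3. Before scaling to length Lsm6 was at 126 CPM in wild type and 142 in KO, near Lsm3 at 125 and 154. Likewise Snrpd3, with 3036 bases, was at 121 and 157 CPM, above Snrpf at 100 and 120. Which transcripts these cells use was not tested.

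In the U2 particle Sf3b6, whose protein contacts the branch point region, stood highest at 148 CPM per kilobase, and Sf3b1, the scaffold that holds the branch helix, was at 114. Sf3a2, a subunit of the SF3A complex, was the lowest of all 53 at 2.43 CPM per kilobase, although its partners Sf3a1 and Sf3a3 were at 27.8 and 107. Its raw level was 5.39 CPM over the 8 libraries. Sf3a2 shares 429 exon bases with Plekhj1 on the opposite strand, whose mean was 77.8 CPM over the wild type and 75 CPM over the KO libraries. The strand setting and overlap rule of the counting were not given in the sources used here, and the part of this overlap in the low count was not tested. The large tri-snRNP proteins were lower per length, Prpf8 at 24.6 and Snrnp200 at 20.2 CPM per kilobase, and among the helicases Dhx15 at 96.7 stood above Dhx16, Dhx8 and Dhx38 at 19.1, 14.7 and 10.6.

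**Figure D1:**
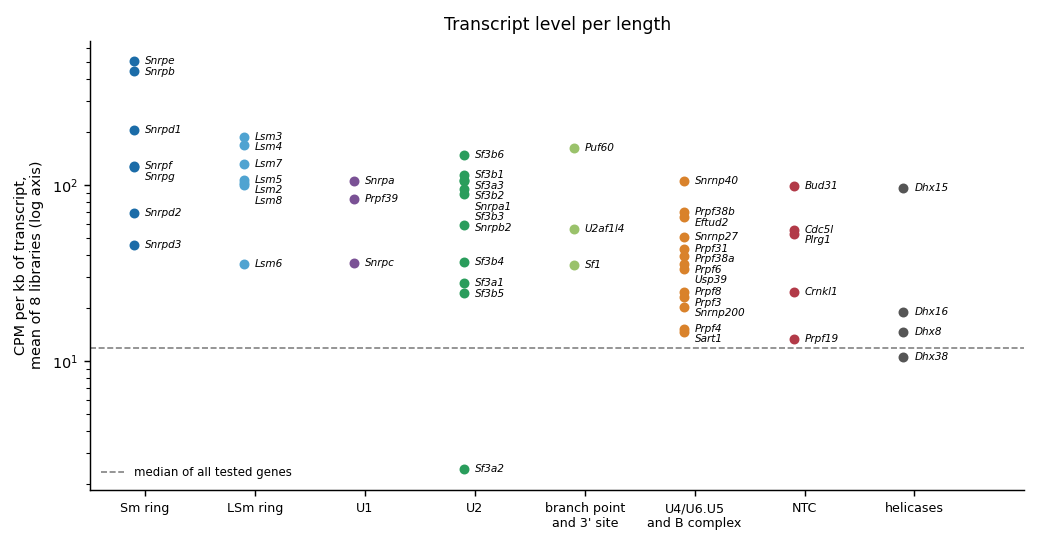
Transcript level of each of the 53 genes as CPM per kilobase of the reference transcript, mean of 8 libraries, on a log axis, by particle (1 point per gene, colours mark particles). Snrpe and Snrpb are highest at 506 and 447, Sf3a2 is lowest at 2.43, and the dashed line is the median of all tested genes at 11.8.

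The comparison of KO with wild type asked whether the transcripts of the spliceosome's own components changed when Jmjd6 was deleted. Jmjd6 RNA remained in the KO libraries, at a mean of 28.7 CPM against 58.6 CPM in wild type. How complete the deletion was cannot be told from gene totals and was not tested. None of the 53 genes passed edgeR's quasi-likelihood test at an adjusted p of 0.05 over all 13439 tested genes, of which 0.0595% passed (8 genes). By the DESeq2 Wald test and by limma voom the number was likewise 0. The lowest adjusted p among the 53 was 0.786 by edgeR, for Prpf31, with the lowest among the 53 running from 0.46 to 0.999 over the alternatives. At an unadjusted p under 0.05, 3 of 53 genes passed (Snrpd2, Snrpd3 and Prpf31), or 5.66%, against 6.06% of all tested genes. All 3 were higher in KO, as were 2.78% of all tested genes, and 0 were lower, as were 3.28%. In 0 of 53 genes did the KO and wild type libraries separate without overlap, which they did in 4.19% of all tested genes, 2.08% higher and 2.11% lower in KO.

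Most of the fold changes were small and above 0. Of the 53 genes, 39 had a log2 fold change above 0 and 14 below, where 49.6% of all tested genes lay above 0. Their median was 0.12, between -0.16 for Prpf8 and 0.46 for Lsm7, and that of all tested genes was -0.002. Scaling by library size alone took the median to 0.06, with 34 above 0, and the median of all tested genes to -0.05. By limma voom it was 0.07, with 44 above 0. With single libraries left out it was 0.08 without KO replicate 3 (40 above 0) or KO replicate 4 (37 above 0), and at most 0.18, without KO replicate 1 (40 above 0). The test bounds these changes fairly closely, as it does for most tested genes of similar level. In 52 of 53 genes the 95% interval of the log2 fold change lay inside a 2-fold change either way, the exception being Lsm7 with an upper bound of 1.15, and in 35 it lay inside 1.5-fold. Over all 13439 tested genes the numbers were 9886 and 4448. Over the 5773 tested genes within the 5th to 95th percentile of the levels of the 53, they were 5527 and 3246.

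**Figure D2:**
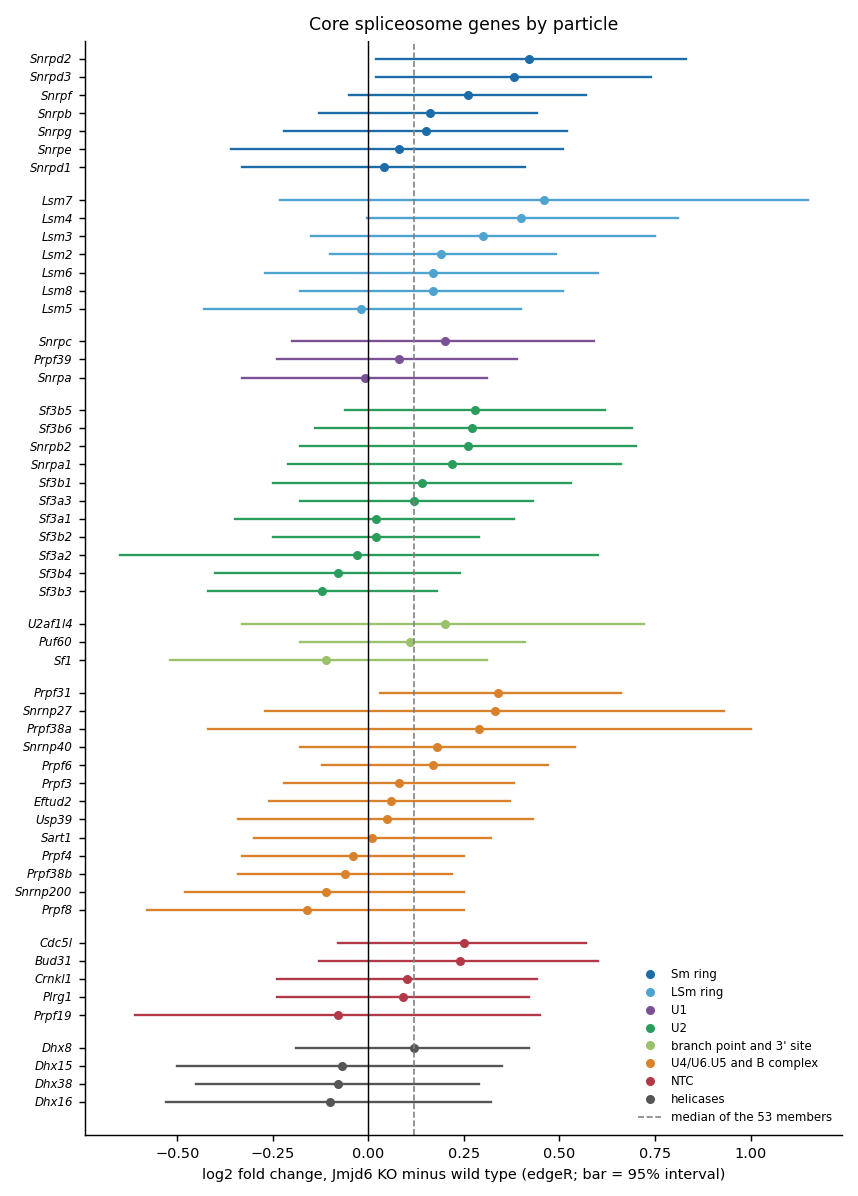
Log2 fold change of each gene, Jmjd6 KO minus wild type, from edgeR with its 95% interval, grouped and coloured by particle and ordered within it. The solid line is 0 and the dashed line the median of the 53 genes, 0.12. Only Snrpd2, Snrpd3 and Prpf31 have intervals that leave out 0, before adjustment for the number of genes.

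All 7 Sm genes lay above 0, with a median of 0.16. That median ran from 0.10 without KO replicate 4 to 0.27 without wild type replicate 1, and was -0.06 once the trend of fold change with transcript length and level was removed. Snrpd2 (chromosome 7, 19149722 to 19153542, plus strand, mm10) encodes SmD2. It was at 94.5, 74.9, 72 and 94.5 CPM in wild type replicates 1 to 4 and at 91.1, 91.5, 144 and 124 CPM in KO replicates 1 to 4. KO replicates 1 and 2 lay among the wild type values and only KO replicates 3 and 4 above them. The log2 fold change was 0.42 (SE 0.19, unadjusted p = 0.0417, adjusted p = 0.811 by edgeR), and 0.29 without KO replicate 3.

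Snrpd3 (chromosome 10, 75517551 to 75537381, plus strand) encodes SmD3, which pairs with SmB in the ring. Wild type replicates held 150, 120, 120 and 94.4 CPM and KO replicates 140, 141, 177 and 169 CPM. Wild type replicate 1 was above KO replicates 1 and 2, so the groups overlapped. Its log2 fold change was 0.38 (SE 0.17, unadjusted p = 0.0424, adjusted p = 0.811 by edgeR), with a range from 0.27 without wild type replicate 4 to 0.51 without wild type replicate 1.

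For the other Sm genes the 95% interval included 0. Snrpd1, for SmD1, had the lowest fold change of the ring, with 218, 143, 160 and 175 CPM in wild type and 150, 185, 167 and 215 CPM in KO. Wild type replicate 1 and KO replicate 4 were its highest libraries and the groups covered nearly the same range. On the log2 scale the difference was 0.04 (95% interval -0.33 to 0.41), and it turned to -0.01 with library size only and to -0.06 without KO replicate 4. Snrpe followed the same libraries, at 332, 199, 244 and 217 CPM in wild type and 213, 267, 226 and 339 CPM in KO, for 0.08 (-0.36 to 0.51). Snrpf (0.26), Snrpb (0.16) and Snrpg (0.15) lay between these and Snrpd3. Snrpf shares 567 exon bases with Ccdc38 on the opposite strand, whose mean was 81.8 CPM in wild type against 99.4 CPM in KO (0.28 on the log2 scale), and the counting may have mixed reads of this pair.

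Of the 7 LSm genes 6 lay above 0 and the median was 0.19. With single libraries left out it ran from 0.10 without KO replicate 3 to 0.30 without wild type replicate 1, and it was 0.05 by limma voom and 0.05 with the length and level trend removed. Lsm7 (chromosome 10, 80852821 to 80855209, minus strand) had the largest fold change of all 53 genes. Its wild type libraries held 58.7, 34, 46.1 and 67.5 CPM and its KO libraries 49, 51.1, 126 and 58.3 CPM. KO replicate 3 alone lay above the wild type range. Its log2 fold change, 0.46 (SE 0.32, edgeR adjusted p = 0.833), was 0.04 without that library.

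Lsm3, the LSm gene with the highest level per length, was at 146, 109, 110 and 137 CPM in wild type and 116, 121, 213 and 166 CPM in KO. KO replicates 3 and 4 again exceeded every wild type library, and KO replicates 1 and 2 did not. The fold change was 0.30 on the log2 scale (adjusted p = 0.833 by edgeR), and 0.10 without KO replicate 3. Lsm4 gave 0.40, with a 95% interval from -0.004 to 0.81, and Lsm2, Lsm8 and Lsm6 gave 0.19, 0.17 and 0.17. Lsm5 was the lowest. Its wild type libraries were at 62.5, 44, 49.7 and 55.5 CPM and its KO libraries at 40.6, 47.5, 66.5 and 54.6 CPM, covering each other's range, with a log2 fold change of -0.02 (-0.43 to 0.40). Leaving out single libraries moved Lsm5 between -0.15 and 0.11.

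The U1 genes ranged from -0.01 to 0.20. Snrpa, which encodes the A protein of U1, was at 129, 159, 123 and 162 CPM in wild type and 138, 143, 126 and 162 CPM in KO. The groups coincided, with a log2 fold change of -0.01 (-0.33 to 0.31), but 0.11 when the 6 libraries holding Y-linked counts were fitted alone. Snrpc, for the C protein that steadies the pairing of U1 with the 5′ splice site, was at 36.7, 26.7, 29.8 and 38.8 CPM in wild type and 36.3, 32, 43.5 and 39.3 CPM in KO. Its log2 fold change was 0.20 (-0.20 to 0.59), and 0.11 without wild type replicate 2. Prpf39, a U1-associated factor, gave 0.08.

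Of the 11 U2 genes 8 lay above 0, with a median of 0.12. It was 0.05 without KO replicate 4 or without wild type replicate 2, reached 0.18 when KO replicate 1 was left out, and was 0.03 with the length and level trend removed. Sf3b5, a small SF3B subunit with the highest fold change of the particle, was at 88.9, 86.7, 76.1 and 85.8 CPM in wild type and 83.1, 91.6, 118 and 117 CPM in KO. Here too KO replicates 3 and 4 lay above all wild type libraries, and its log2 fold change was 0.28 (SE 0.16, adjusted p = 0.832 by edgeR). Sf3b6 was at 198, 112, 158 and 166 CPM in wild type and 159, 168, 217 and 223 CPM in KO, a log2 fold change of 0.27 (adjusted p = 0.833 by edgeR), and 0.14 without wild type replicate 2.

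Sf3b3, a large SF3B subunit, was at 398, 421, 438 and 424 CPM in wild type and at 447, 412, 346 and 344 CPM in KO, the lowest fold change of the particle at -0.12 (-0.42 to 0.18). Here KO replicates 3 and 4 were the lowest of all 8 libraries. Sf3b1, the member most often mutated in myeloid disease, was at 791, 499, 782 and 610 CPM in wild type and 718, 743, 867 and 629 CPM in KO. Its groups overlapped broadly, with a log2 fold change of 0.14 (-0.25 to 0.53). Sf3b2, Sf3a1 and Sf3a3 gave 0.02, 0.02 and 0.12, Sf3b4 and Sf3a2 gave -0.08 and -0.03, and the genes of a pair of U2-specific proteins that bind each other, Snrpa1 and Snrpb2, gave 0.22 and 0.26.

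Among the factors of the branch point and 3′ splice site, Sf1, the branch point binding protein, was at 180, 169, 154 and 132 CPM in wild type and 171, 183, 102 and 133 CPM in KO. KO replicate 3 was the lowest library, and the log2 fold change of -0.11 (-0.52 to 0.31) became 0.03 without it. U2af1l4, a relative of the small U2AF subunit that reads the intron's terminal AG, was at 40.3, 36.6, 51.8 and 57.7 CPM in wild type and 40.3, 47.2, 80.5 and 45.9 CPM in KO. KO replicate 3 was here the highest, and the log2 fold change of 0.20 became -0.07 without it. U2af1l4 shares 954 exon bases with Gm49396 on the same strand, which is not in the count table. It also shares 88 with Psenen on the opposite strand. The part of these overlaps in the U2af1l4 count was not tested. Puf60, a relative of the large U2AF subunit, was at 264, 328, 276 and 307 CPM in wild type and 302, 308, 311 and 352 CPM in KO, for a log2 fold change of 0.11 (-0.18 to 0.41).

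Of the 13 tri-snRNP and B complex genes 9 lay above 0, with a median of 0.06, and -0.01 without KO replicate 3. They held both the lowest adjusted p and the lowest fold change of the 53. Prpf31 (chromosome 7, 3629985 to 3642486, plus strand) encodes a U4/U6 protein that bridges to U5. Its wild type libraries were at 111, 122, 120 and 130 CPM and its KO libraries at 142, 130, 183 and 158 CPM. The groups overlapped only just, the highest wild type library at 129.7 CPM and the lowest KO library at 129.6 CPM. The log2 fold change was 0.34 (SE 0.14, unadjusted p = 0.0347, adjusted p = 0.786 by edgeR), and between 0.25 and 0.44 with single libraries left out. Prpf31 shares 984 exon bases with Gm15927 on the opposite strand, which is not in the count table. The part of this overlap in the Prpf31 count was not tested.

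Prpf8 (chromosome 11, 75486816 to 75509449, plus strand) encodes the U5 protein at the heart of the catalytic centre. It was at 210, 156, 219 and 189 CPM in wild type and 212, 203, 151 and 125 CPM in KO. KO replicates 3 and 4 were its lowest libraries and KO replicates 1 and 2 lay inside the wild type range. Its log2 fold change was -0.16 (SE 0.19, 95% interval -0.58 to 0.25, adjusted p = 0.883 by edgeR), and -0.03 without KO replicate 4. Snrnp200, the helicase that unwinds U4 from U6, gave -0.11 and Eftud2, the U5 GTPase beside Prpf8, gave 0.06. Snrnp40, the U5 gene highest per length, was at 151, 157, 141 and 173 CPM in wild type and 159, 147, 232 and 168 CPM in KO. Its 0.18 on the log2 scale was 0.02 without KO replicate 3. The other tri-snRNP and B complex genes, Prpf3, Prpf4, Prpf6, Sart1, Usp39, Snrnp27, Prpf38a and Prpf38b, lay between -0.06 and 0.33.

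The NTC genes had a median of 0.10, with 4 of 5 above 0. It was 0.01 without KO replicate 4, 0.22 without KO replicate 1 and 0.01 with the length and level trend removed. Cdc5l (chromosome 17, 45391884 to 45433737, minus strand), a core NTC subunit, was at 165, 155, 150 and 147 CPM in wild type and 158, 161, 232 and 180 CPM in KO. KO replicates 3 and 4 lay above the wild type range, and the log2 fold change, 0.25 (SE 0.15, edgeR adjusted p = 0.832), was 0.11 without KO replicate 3. Parts of the Cdc5l transcript recur at 95% identity or more in 10 other genes, 6 of them in the count table, so its count may share reads with them. Prpf19, the ubiquitin ligase that gives the complex its name, was at 38.3, 28.1, 29.7 and 20.9 CPM in wild type and 29.7, 33, 17.5 and 30.4 CPM in KO. The log2 fold change was -0.08 (-0.61 to 0.45), and 0.09 without wild type replicate 1 or without KO replicate 3. Bud31 was at 95.8, 67.6, 84.7 and 90.2 CPM in wild type and 84.5, 87.7, 113 and 113 CPM in KO, with 0.24 (0.14 without wild type replicate 2), and Plrg1 and Crnkl1 gave 0.09 and 0.10.

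The helicases were the particle group with a median below 0, at -0.08, but this sign was lost without KO replicate 3 (0.04), without wild type replicate 1 (0.03), with the 6 Y-linked libraries fitted alone (0.02) and by limma voom (0.08). Dhx16, which acts before the first catalytic step, was at 73.4, 75.8, 56.7 and 58.7 CPM in wild type and 58.6, 76, 43.9 and 67.8 CPM in KO, for -0.10 (-0.53 to 0.32), and 0.03 without KO replicate 3. Dhx15, which takes apart the spent complex, was at 402, 268, 291 and 232 CPM in wild type and 295, 317, 213 and 309 CPM in KO, for -0.07 (-0.50 to 0.35), and 0.12 without wild type replicate 1. In both genes KO replicate 3 was the lowest of the 8 libraries. Dhx8, which releases the spliced mRNA, was at 56.4, 69.4, 58.6 and 59.8 CPM in wild type and 63.4, 67.2, 65 and 69.2 CPM in KO, for 0.12 (-0.19 to 0.42). Dhx38, a factor of the second step, gave -0.08.

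**Figure D3:**
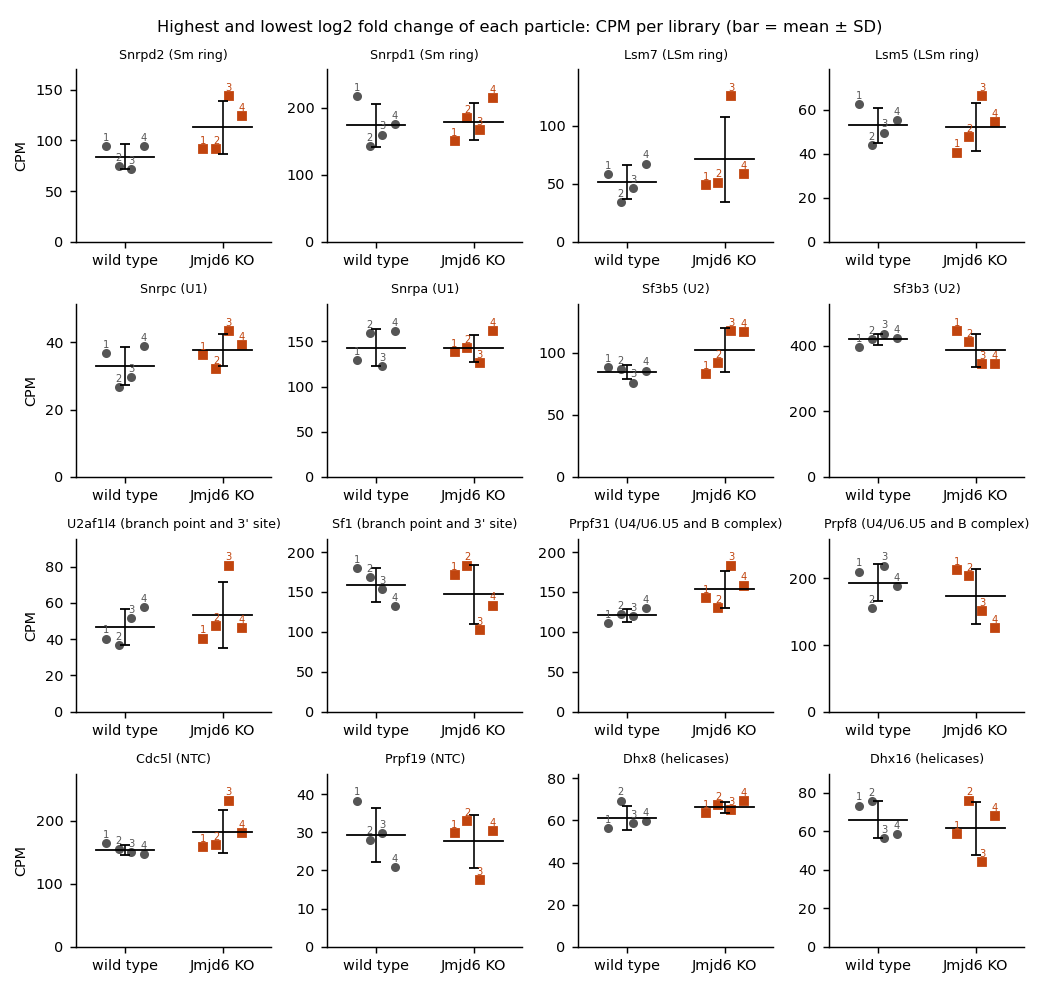
CPM in each library (numbered by replicate, grey circles wild type, orange squares Jmjd6 KO) for the gene with the highest and the one with the lowest log2 fold change of each particle, with the mean and SD of 4 libraries. KO replicates 3 and 4 lie above all wild type libraries for Snrpd2, Snrpc, Sf3b5, Prpf31 and Cdc5l and below them for Sf3b3 and Prpf8, and all 16 genes have overlapping groups.

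Printed here, 3 stretches upstream of RefSeq transcript starts (build GRCm38.p6, the assembly that mm10 names) show promoter sequence for the tri-snRNP genes with the highest and lowest fold change and for the NTC gene with the highest, chosen after their values were seen. Bases of annotated exons are left out, and capitals mark a CCAAT box (CCAAT on either strand) or, in Cdc5l, also a cAMP response element (TGACGTCA). Prpf31 is chr7:3629930-3629984 on the plus strand, Prpf8 is chr11:75486657-75486776 on the plus strand and Cdc5l is chr17:45433738-45433830 on the minus strand.
Prpf31: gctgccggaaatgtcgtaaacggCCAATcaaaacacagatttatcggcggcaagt
Prpf8: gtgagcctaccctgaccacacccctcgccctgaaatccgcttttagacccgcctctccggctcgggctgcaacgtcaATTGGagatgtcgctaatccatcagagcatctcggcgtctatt
Cdc5l: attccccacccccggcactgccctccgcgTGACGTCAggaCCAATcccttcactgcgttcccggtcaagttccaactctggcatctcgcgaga

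Prpf31 and Prpf8, which have the highest and the lowest fold change of the tri-snRNP and B complex genes, both carry a CCAAT box close to the start. RefSeq promoter sequence, 250 bases before to 50 after a start, was matched for 43 of the 53 genes and for 10303 tested genes. A CCAAT box was present in 41.9% of the matched spliceosome genes and 43% of the tested genes, and a GC box (GGGCGG) in 65.1% and 67%, searched on both strands. The ETS-type letters CCGGAAGT were found in 8 of 43 (18.6%), namely Snrpe, Lsm5, Sf3a1, Sf3a3, Sf3b2, Snrnp27, Prpf6 and Dhx8, and in 9.16% of tested genes. The cAMP response element was in 4 of 43 (9.3%), namely Snrpg, Lsm2, Snrpa and Cdc5l, and in 3.51%. A TATA box (TATAAA) was in 4.65% and 8.64%, an E box (CACGTG) in 6.98% and 11.8%, a YY1-type motif (ATGGCGGC) in 6.98% and 5.7% and the NRF1 motif in 0% and 2.33%. The 8 genes with the ETS-type letters had log2 fold changes from -0.02 (Lsm5) to 0.33 (Snrnp27).

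Across the libraries the spliceosome genes did not follow genotype alone. The 53 genes together took 8386, 7336, 7667 and 7588 CPM in wild type replicates 1 to 4 and 7870, 8094, 8736 and 8626 CPM in KO replicates 1 to 4. KO replicates 3 and 4 were the highest, wild type replicate 1 came next, and the ranges overlapped. KO replicate 3 was the highest of the 8 libraries in 18 of the 53 genes and the lowest in 11, and KO replicate 4 the highest in 15 and the lowest in 3. Within its group wild type replicate 1, the library with high erythroid and granulocyte markers, was the highest in 27 genes. KO replicate 1 was the lowest KO library in 25. These counts were not made over all tested genes, so whether they are particular to the spliceosome genes is not known. Over all tested genes KO replicate 3 also stood apart, at 83.9 on the first principal component against -28 to 9.4 elsewhere.

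The particles also parted from each other within KO replicate 3. Relative to the wild type mean, its LSm genes averaged 0.62 higher in log2 CPM and its helicases -0.35, while KO replicates 1 and 2 had the LSm genes at -0.05 and -0.02 and the helicases at -0.01 and 0.13. KO replicate 4 was high in both rings, 0.46 for Sm and 0.32 for LSm. Wild type replicate 1 was at 0.23 and 0.20, measured from a wild type mean that includes it. It lay above KO replicates 1 and 2 in both rings, which were at 0.02 and 0.14 for Sm and -0.05 and -0.02 for LSm. Against the mean of the other 3 KO libraries, KO replicate 3 was higher by 1.26 in log2 CPM for Lsm7, 1.06 for Prpf38a, 0.96 for Snrnp27 and 0.86 for U2af1l4. It was lower for Prpf19, at -0.82, Sf1, at -0.65, and Sf3a1 and Dhx16, both at -0.61.

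**Figure D4:**
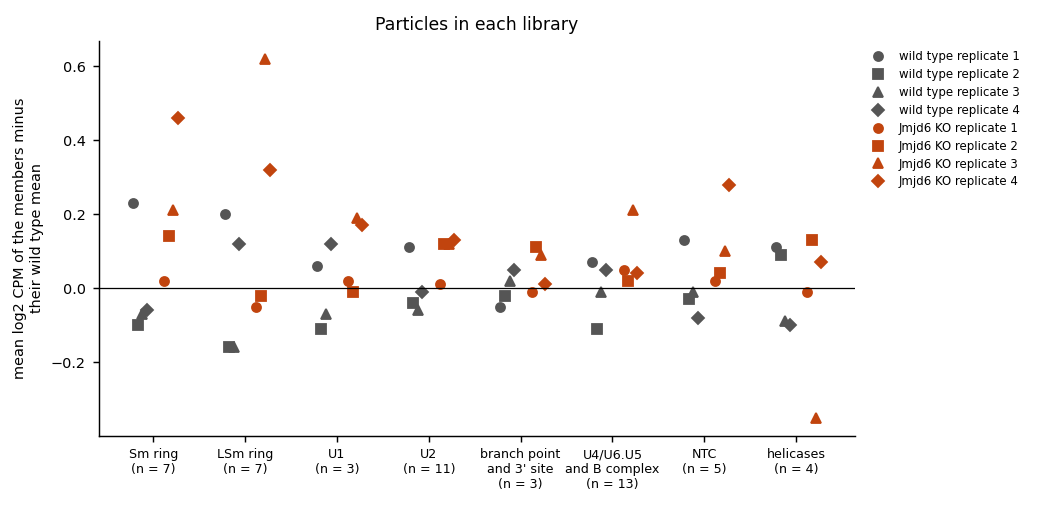
Mean log2 CPM of each particle's genes in each library, minus the wild type mean of the same genes (grey wild type, orange Jmjd6 KO, symbol shapes mark replicates 1 to 4, n is the number of genes). The LSm ring runs from -0.16 in wild type replicates 2 and 3 to 0.62 in KO replicate 3, and the helicases reach -0.35 in KO replicate 3.

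Fold change within the spliceosome genes went with transcript length. The Spearman correlation over the 53 genes was -0.51, and -0.55 over the 39 outside the Sm and LSm rings, against -0.33 over 13187 tested genes with a length. Within the KO group, the difference of KO replicate 3 from the other KO libraries also went with length over the 53 genes, at -0.38. That value was not computed over all tested genes, so whether it is particular to the 53 is not known. The correlations are descriptions across genes of the same 8 libraries. Of 19 spliceosome genes with a transcript under 1500 bases, 17 lay above 0, with a median log2 fold change of 0.20. The 2444 tested genes of that length had a median of 0.19, with 72.8% above 0. Between 1500 and 3500 bases 15 of 21 lay above 0, against 53.5% of tested genes. The medians there were 0.09 for the spliceosome and 0.02 for all genes. At 3500 bases and over 7 of 13 lay above 0, against 33.5% of tested genes, with medians of 0.01 and -0.10. With a trend of fold change on length and expression level over all genes removed, the median of the 53 was 0.01, with 29 above 0. What lies behind the trend with length was not tested.

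**Figure D5:**
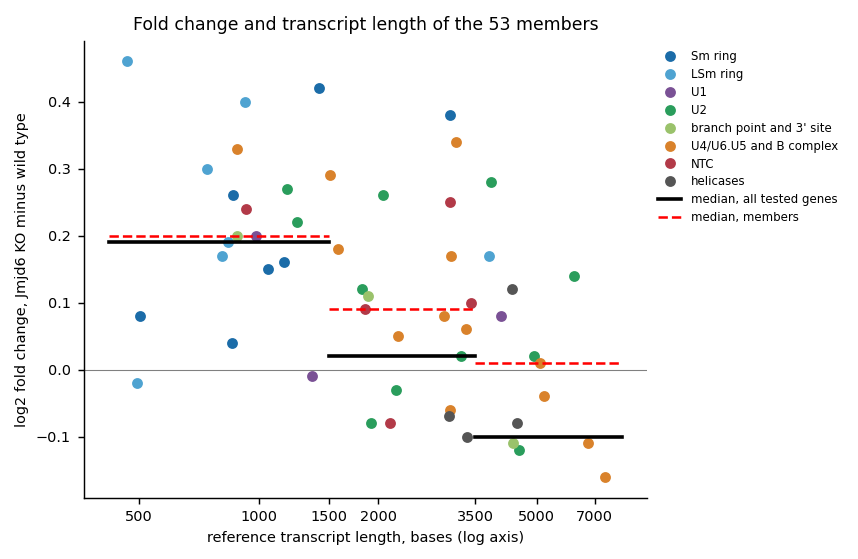
Log2 fold change of each of the 53 genes (points, coloured by particle) against the length of its reference transcript on a log axis. Black bars are medians of all tested genes and red dashed bars medians of the spliceosome genes in 3 length classes, 0.19 and 0.20 under 1500 bases and -0.10 and 0.01 from 3500 bases.

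Genes of the wider splicing machinery were examined in the same fit. Of 104 further genes listed under splicing and snRNP assembly, 103 were tested. Of these 69 lay above 0, with a median of 0.11 over the 103, and 0 passed edgeR's test over all genes. Of all tested genes 49.6% lay above 0, with a median of -0.002, and 0.0595% passed. By DESeq2 and by limma voom 0 passed as well. At an unadjusted p under 0.05 were 9 of 103, or 8.74%, 8 higher and 1 lower. Over all tested genes the share was 6.06%, with 2.78% higher and 3.28% lower. The groups did not overlap in 4 of 103, namely Snu13, Isy1, Pnn and Prmt5, against 4.19% of all tested genes.

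Genes listed under snRNP assembly, among them factors that load the Sm ring or return the particle to the nucleus, lay above 0 in 16 of 19 cases. Their median was 0.18. Snupn, the import adaptor of snRNPs, was at 19.2, 23.6, 16.4 and 27 CPM in wild type and 26.6, 23.5, 50.2 and 31.3 CPM in KO. KO replicate 3 was far above the rest, and the log2 fold change of 0.61 (adjusted p = 0.796 by edgeR) was 0.33 without it. Gemin6, a subunit of the SMN complex, gave 0.57 (adjusted p = 0.774 by edgeR), and 0.36 without KO replicate 3. The reference transcripts of Snupn and Gemin6 have 1391 and 1134 bases, and the median of the list was 1942 bases. Tested genes under 1500 bases had a median log2 fold change of 0.19, with 72.8% above 0. The part of transcript length in the medians of this and the other lists below was not tested.

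Of the U1 and U2 proteins and auxiliary factors outside the 53, only 7 of 20 lay above 0, with a median of -0.07. U2af1, the small U2AF subunit, was at 151, 138, 132 and 102 CPM in wild type and 149, 148, 215 and 173 CPM in KO, a log2 fold change of 0.39 (adjusted p = 0.811 by edgeR), and Prpf40b gave -0.51 (adjusted p = 0.832 by edgeR), and -0.30 without KO replicate 4. Tri-snRNP and B complex genes outside the 53 lay above 0 in 11 of 14, with a median of 0.13. Snu13, a protein of the U4 stem, was at 147, 143, 143 and 152 CPM in wild type and 152, 178, 231 and 203 CPM in KO, all KO libraries at or above the highest wild type one. Its log2 fold change was 0.38 (SE 0.15, adjusted p = 0.772 by edgeR), and Txnl4a gave 0.28 (0.18 without KO replicate 3).

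NTC, catalytic and second step factors lay above 0 in 16 of 23, with a median of 0.09. Isy1, an NTC-related protein, was at 89.6, 85.9, 86 and 95.1 CPM in wild type and 104, 101, 122 and 119 CPM in KO, without overlap. Its log2 fold change was 0.32 (SE 0.13, adjusted p = 0.774 by edgeR), and Ppil1 gave 0.33. In the exon junction complex 6 of 9 lay above 0 with a median of 0.13. Pnn, a protein of the complex's periphery, was the one lower gene at an unadjusted p under 0.05, at 215, 182, 180 and 190 CPM in wild type and 169, 170, 132 and 147 CPM in KO (log2 fold change -0.31, adjusted p = 0.811 by edgeR), while Rbm8a gave 0.24. Minor spliceosome proteins had a median of 0.02 with 7 of 11 above 0, Snrnp35 giving 0.58 and Rnpc3 -0.35 (adjusted p of 0.774 and 0.812 by edgeR). Sm and LSm relatives had a median of 0.08 with 6 of 7 above 0, Lsm10, of the U7 particle, giving 0.59 (adjusted p = 0.8 by edgeR) and Lsm1, of the cytoplasmic ring, 0.22. Without KO replicate 3 these were 0.32 and 0.09.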

How the data were processed

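The authors deposited whole-number read counts per gene symbol for 26146 genes in 8 libraries, 4 per genotype, aligned with HISAT2 to mm10 per the submitters' processing notes. The counting tool, annotation and strand setting were not given in the sources used here.

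KO was compared with wild type by the quasi-likelihood test of edgeR 4.0.16 (R 4.3.3) over all 8 libraries, with TMM scaling, no covariate and default filterByExpr (min.count 10, min.total.count 15). This left 13439 genes, over which Benjamini-Hochberg adjusted p-values were called under 0.05. The fit was tested on simulated data. The 95% intervals carry the spread between mice as the quasi-likelihood fit estimated it for each gene, with a median SE of 0.17 over the 53. The common coefficient of variation over all tested genes was 27.8%. Log2 CPM used a prior count of 2. Replicates differed beyond sampling noise (chi-square per degree of freedom at least 6.56).

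Positions, overlaps and lengths (APPRIS principal transcript, then the longest) came from GENCODE M21, which placed 25367 symbols and all 53 spliceosome genes, and promoters from RefSeq GRCm38.p6. Of the 53, 18 share exon bases with another annotated gene, 10 of them with a gene of the table. A further property, a copy at 95% identity over at least 30% of the transcript, holds for 8 (Snrpd1, Snrpe, Lsm5, Lsm7, Snrpa, Snrpc, Sf3b4 and Cdc5l). The counts of all these genes are uncertain.

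The genes and lists were chosen with earlier results of these data known. Given in every library were those of the 53 genes at an unadjusted p under 0.05, those whose groups did not overlap, and in each particle the highest and lowest fold change and the highest level per length. In each of the other lists the 2 genes with the smallest p were named. Sf3b1, Prmt5, the genes named by motif and those set against KO replicate 3 were named after their values were seen.

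Alternatives were scaling by DESeq2 size factors or by library size only, dropping the filter or asking for CPM above 1 in 4 libraries, a replicate block, a term for Y-linked counts or the 6 libraries with them alone, DESeq2 1.42.0, limma 3.58.1 voom with sample weights, robust shrinkage, thresholds of 0.01 and 0.1, each library left out, and a loess trend (span 0.3) removed. Leaving out KO replicate 3 and wild type replicate 1 together was added after seeing the data.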

Additional observations from a re-analysis of the deposited data

Results flagged for a closer look

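Of 108 groups of 4 libraries (the 53 genes and Jmjd6 in each genotype), 7 held a library far from the other 3, with a gap past Dixon's 95% critical value. Chance gives such a gap in about 1 in 20 groups. In KO replicate 3 Lsm7 stood at 126 CPM, where its fellow KO libraries held 49 to 58.3 CPM, Prpf38a, a B complex protein gene, at 107 CPM against 49.8 to 54.5 CPM, and Usp39, a tri-snRNP protein gene, at 85.2 CPM against 72.9 to 73.1 CPM. In wild type replicate 1 Snrpb2 stood at 144 CPM against 99.3 to 105 CPM and Lsm8 at 86.4 CPM against 72 to 74.4 CPM. Sf3a3 was at 196 CPM in wild type replicate 2, against 181 to 183 CPM, and Puf60 at 352 CPM in KO replicate 4, against 302 to 311 CPM.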

How the results depend on the processing

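The number of spliceosome genes and of other splicing genes past an adjusted p of 0.05 was 0 under each alternative fitted. The count over all genes, 8, was 15 with a term for libraries with or without Y-linked counts, 4 among those with them, 66 by DESeq2, 31 by limma voom, 4 with KO replicate 3 and wild type replicate 1 both left out, 2 at a threshold of 0.01, and 2 to 8 with single libraries left out. The 3 spliceosome genes at an unadjusted p under 0.05 became 0 with library size only, among libraries with Y-linked counts and by limma voom, 1 with both libraries left out, and 0 to 6 with single libraries left out. The median of 0.12 became 0.01 with the trend with length and level removed. Signs turned for values never past the threshold, and the cause was not tested. Removing that trend gave Snrpd1 -0.22, Snrpe -0.13, U2af1l4 -0.03, Snrpc -0.0002, and Puf60 and Bud31 -0.01 each. Limma voom gave Snrpa 0.06, U2af1l4 -0.07, Sf1 0.12, Prpf19 0.10, Dhx16 0.09 and Dhx15 0.04. Leaving out both libraries gave U2af1l4 -0.13, Sf1 0.10, Prpf19 0.25, Dhx16 0.08 and Dhx15 0.22. Snrpd1 was -0.01 with library size only and Snrpa 0.11 among libraries with Y-linked counts. With single libraries left out the ranges were -0.06 to 0.18 for Snrpd1, -0.07 to 0.26 for Snrpe, -0.15 to 0.11 for Lsm5, -0.08 to 0.05 for Snrpa, -0.07 to 0.33 for U2af1l4, -0.21 to 0.03 for Sf1, -0.21 to 0.09 for Prpf19, -0.20 to 0.03 for Dhx16 and -0.18 to 0.12 for Dhx15. Of 780 values of the 39 named genes, 741 kept the sign reported.

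Whether replicate numbers pair the mice could not be settled with 4 libraries per group. Same-numbered libraries correlated at -0.19 to 0.03 in their deviations from the group means, and wild type replicates 1 to 4 correlated best with KO replicates 2, 4, 1 and 3. With a replicate block 0 spliceosome genes passed, 3 genes passed in all, 0 spliceosome genes had an unadjusted p under 0.05 and the median was 0.12. Jmjd6 itself lost its call under the block, with the log2 fold change at -1.02 and an edgeR adjusted p of 0.402.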
